A study of Mus musculus with 2 samples.

Results

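The miR-302 and miR-290 clusters are the miRNA groups best known from pluripotent cells of the mouse, and the data described here are their counts in the embryonic heart. The members were the rows whose Ensembl identifiers GENCODE assigns to Mir302a, Mir302b, Mir302c, Mir302d and Mir367 of the miR-302 cluster, and to Mir291a, Mir293, Mir294 and Mir295 of the miR-290 cluster. All 9 were present, among 1973 gene rows in all. The samples were hearts of healthy B6NCrl mouse embryos at 13.5 days, male and female tissue together, and the labels name no treatment and no allele. Small RNAs from 2 such samples, given as biological replicates with 1 shared donor record, were sequenced as separate libraries. There is no second condition, so the clusters were compared with each other within each library.

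A miRNA is cut from a hairpin precursor that yields a 5p and a 3p arm, and one of them is loaded into an Argonaute protein. The loaded strand finds its target mRNAs mainly through its seed, bases 2 to 8 from the 5′ end, so miRNAs with the same seed can share targets. The miR-302 miRNAs come from 1 primary transcript and are known from embryonic stem cells, the epiblast and early cardiac and lung progenitors. The miR-290 miRNAs have a human counterpart in the miR-371 to miR-373 group, and are known from embryonic stem cells, germ cells and trophoblast. Both clusters are known for speeding the cell cycle of stem cells.

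The 3p arms are shown because the shared seed is what joins the clusters. Sequences are from RefSeq on build GRCm38.p6, 5′ to 3′, with bases 2 to 8 in capitals.
miR-302b-3p: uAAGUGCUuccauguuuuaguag
miR-302d-3p: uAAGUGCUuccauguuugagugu
miR-302c-3p: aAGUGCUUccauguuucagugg
miR-291a-3p: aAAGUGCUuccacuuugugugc
miR-294-3p: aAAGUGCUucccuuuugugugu
miR-295-3p: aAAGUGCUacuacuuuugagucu
miR-293-3p: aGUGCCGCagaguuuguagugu
miR-367-3p: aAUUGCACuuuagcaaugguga

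The seed AAGUGCU was found at bases 2 to 8 of 5 of the 1738 mature entries in the RefSeq table (0.288%). All 5 belong to members: miR-302b-3p and miR-302d-3p of the first cluster, and miR-291a-3p, miR-294-3p and miR-295-3p of the other. The entry of miR-302c-3p starts 1 base later, so the same letters stand at its bases 1 to 7 and its seed by position is AGUGCUU. Mir293 and Mir367 carry other seeds. That of miR-367-3p, AUUGCAC, was found in 7 genes, the others being Mir25, Mir32, Mir363, Mir92-1, Mir92-2 and Mir92b. The 3p arms of Mir302a and Mir292 and the hairpin of Mir291a had no entry among the sequences used here. The 3p seed of Mir302a, the highest row, was therefore not read, and its absence from this set of 5 does not show that it lacks the shared seed.

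Over the whole arm, seed included, the miR-302 arms resembled each other closely, and so did miR-291a-3p and miR-294-3p. With the seed letters aligned and no gaps, miR-302b-3p and miR-302d-3p had 20 of 23 bases in common, and miR-291a-3p and miR-294-3p had 19 of 22. Between clusters, miR-302b-3p shared 14 of 22 bases with miR-291a-3p and 14 of 22 with miR-294-3p. The arms of Mir295 and Mir293 were not closer to every arm of their own cluster than to the miR-302 arms. That of Mir295 had 17 of 23 bases in common with miR-302d-3p, 15 of 22 with miR-291a-3p and 12 of 22 with miR-294-3p. That of Mir293 had 11 of 21 in common with miR-302d-3p and 10 of 20 with miR-294-3p, but 15 of 22 with the 3p arm of Mir290a.

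The 5p arms of Mir302a, Mir302b and Mir293 are shown because the deposited rows count a whole hairpin. Reads from either arm therefore fall in the same row and cannot be told apart.
miR-302a-5p: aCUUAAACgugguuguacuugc
miR-302b-5p: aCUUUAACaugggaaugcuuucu
miR-293-5p: aCUCAAACugugugacauuuug
The 5p seed CUUUAAC was common to Mir302b, Mir302c and Mir302d and to no other gene of the table. The 5p seed CUCAAAC was common to Mir293 and to Mir290a and Mir292 of the same cluster.

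The miR-302 cluster occupied chr3:127545228-127545807 on the plus strand of mm10, a span of 580 nucleotides in the order Mir302b, Mir302c, Mir302a, Mir302d, Mir367. All 5 hairpins lay in an intron of Larp7, an RNA-binding protein gene of the minus strand, so the miRNAs are antisense to it. The miR-290 cluster occupied chr7:3218626-3220841 on the plus strand, a span of 2216 nucleotides. Its 4 members lay opposite to the last part of Nlrp12, an immune regulator gene of the minus strand, within an exon that GENCODE M21 gives as untranslated there. The tables held 3 more rows of that cluster on the same strand, Mir290a, Mir292 and Mir291b. The row of Mir292 was the third highest of its cluster, which the count over the 4 members therefore leaves out.

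Replicate 1 held 5569959 counts on the strand of the annotated genes and replicate 2 held 6039005. Levels are given as CPM, the count divided by this total and scaled to 1000000. No count lay on the opposite strand at any of the 9 members. Reads that mapped to several places formed a class of their own, 26.9% of reads in replicate 1 and 28.0% in replicate 2, and are assumed not to be part of any gene's count. The limit that a count of 0 allows, 3 counts, came to 0.539 CPM for the replicate 1 library and 0.497 CPM for the other. Intervals below are exact Clopper-Pearson 95% intervals, and like the limits they describe counting error alone, because PCR copies of 1 molecule are counted separately. In heart tissue, fewer cells that hold a miRNA and less of it per cell cannot be told apart.

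The miR-302 cluster was well above the detection limit in both libraries, and the miR-290 cluster was present at a far lower level. The 5 miR-302 rows together held 2337 CPM in replicate 1 and 2636 CPM in replicate 2, or 2487 ± 212 CPM (SD, n = 2). The 4 miR-290 members held 95.3 and 86.8 CPM, or 91.1 ± 6.06 CPM. The 2 libraries placed the clusters far apart and in the same order. Of all counts at the 9 members, 96.1% (95.7 to 96.4) in replicate 1 and 96.8% (96.5 to 97.1) in replicate 2 fell on the miR-302 cluster.

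Mir302a (ENSMUSG00000065552.1, chr3:127545496-127545564) was the highest member. It held 5694 counts in replicate 1 and 6647 in replicate 2, which was 1022 and 1101 CPM and 1061 ± 55.4 CPM on average. By mean CPM it ranked 76 among the 1973 rows, of which 692 had a count in either library. The rows of nearest level were Mir501 at 1076 ± 180 CPM, next above, and Mir181a-1 at 1042 ± 85.6 CPM, next below. Their ranges over the libraries overlapped that of Mir302a, and with 2 libraries of 1 group the level is the only likeness that could be measured.

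Mir302d and Mir302b followed at similar levels. Mir302d (ENSMUSG00000065447.1, chr3:127545624-127545689) held 3561 and 4834 counts, or 639 and 800.5 CPM in replicates 1 and 2 (720 ± 114 CPM). Mir302b (ENSMUSG00000076252.1, chr3:127545228-127545301) held 3353 and 3918 counts, or 602 and 649 CPM (625 ± 33.1 CPM). Mir302d was above Mir302b in both libraries, by a log2 ratio of 0.09 in replicate 1 and 0.30 in replicate 2. The levels of Mir302d and Mir302b overlapped across libraries, since Mir302d in replicate 1 lay below Mir302b in replicate 2. Mir302a exceeded Mir302d by 1.48-fold (log2 0.57 ± 0.15, SD, n = 2) and Mir302b by 1.70-fold in each library. These 3 rows took 96.8% ± 0.107 of the cluster's counts.

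Mir302c, from the hairpin between those of Mir302b and Mir302a, was far below its neighbours. Mir302c (ENSMUSG00000065482.1, chr3:127545363-127545430) held 404 and 522 counts, or 72.5 and 86.4 CPM (79.5 ± 9.83 CPM). Mir302b exceeded it by 7.89-fold (log2 2.98 ± 0.10) and Mir302a by 13.4-fold (log2 3.74 ± 0.10). These differences within 1 primary transcript were many times the SD between libraries. The hairpins of Mir302a and Mir302b share a run of 20 bases, the longest such run for any miR-302 hairpin, and Mir302c shares at most 16 bases with another hairpin of the table. How many short reads each of these rows lost to the multi-mapping class was not tested.

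Mir367, the last hairpin of the miR-302 cluster, was at the detection limit. Mir367 (ENSMUSG00000065413.2, chr3:127545733-127545807) held 3 counts in replicate 1, or 0.539 CPM (0.111 to 1.57), and none in replicate 2. No fold is given against such counts. Its arms share at most 10 bases with another hairpin of the table. Other places of the genome were not searched, and how many of its reads fell in the multi-mapping class was not tested. The place in the cluster did not order the levels: from the first hairpin to the last the mean was 625, 79.5, 1061, 720 and 0.269 CPM.

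**Figure D1:**
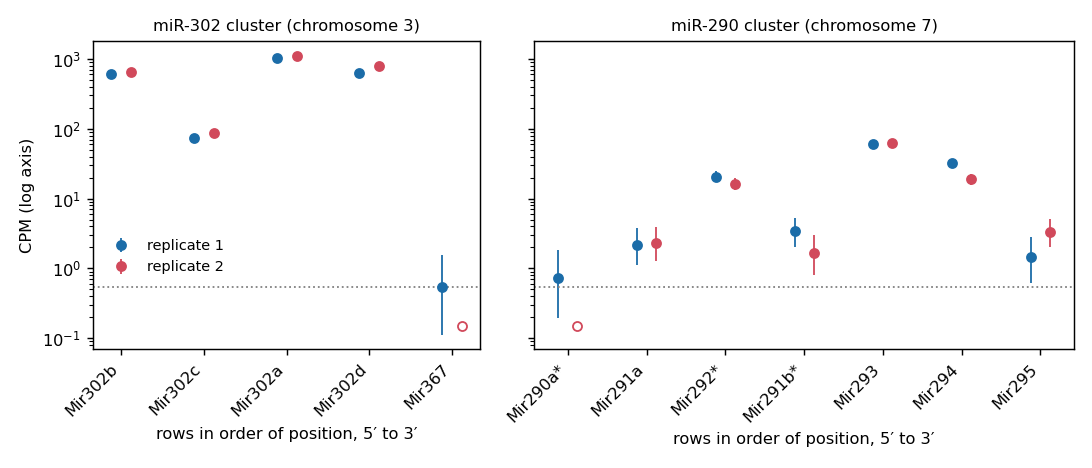
CPM on a log axis in each library for the rows of the miR-302 cluster (left) and the miR-290 cluster (right), in order of position. Bars are exact 95% intervals, the dotted line is the limit of 0.539 CPM that a count of 0 allows in replicate 1, open circles are rows at 0 drawn at the foot of the axis, and an asterisk marks rows outside the 9 members. Mir302a, Mir302b and Mir302d stand near 600 CPM or above in both libraries, Mir293 near 61 CPM, and Mir367 at the limit.

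In the miR-290 cluster, Mir293 led, a miRNA that does not carry the shared seed. Mir293 (ENSMUSG00000078035.1, chr7:3220343-3220422) held 333 and 376 counts, or 59.8 CPM in replicate 1 and 62.3 CPM in replicate 2 (61.0 ± 1.75 CPM), and took 67.2% ± 6.39 of the counts of the 4 members. By mean CPM it ranked 208, between Mir495 at 61.9 ± 14.0 CPM and Mir29c at 59.5 ± 0.356 CPM. Mir293 was below Mir302c in both libraries, by a log2 ratio of Mir302c over Mir293 of 0.38 ± 0.14.

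Mir294, the highest miR-290 member with the shared seed, held 178 and 114 counts (ENSMUSG00000077903.1, chr7:3220641-3220724). That was 32.0 CPM in replicate 1 (27.4 to 37.0) and 18.9 CPM in replicate 2 (15.6 to 22.7), or 25.4 ± 9.25 CPM. Its intervals in the libraries did not overlap, and its SD, 36.4% of the mean, was the widest in relative terms of the 6 members at 10 CPM or more. Mir293 exceeded it by 2.48-fold (log2 1.31 ± 0.58), in both libraries.

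Mir291a and Mir295, at opposite ends of the 4 members, were close to the limit. Mir291a (ENSMUSG00000078008.1, chr7:3218919-3219000) held 12 counts in replicate 1 and 14 in replicate 2 (2.24 ± 0.116 CPM). Mir295 (ENSMUSG00000077886.1, chr7:3220773-3220841) held 8 and 20 counts (2.37 ± 1.33 CPM). Their order differed between the libraries, so they did not differ beyond their spread. Mir294 exceeded Mir291a by 11.0-fold (log2 3.46 ± 0.61). The 5p arms of Mir291a and Mir291b share a run of 20 of their 22 bases, so reads from them could fall in the multi-mapping class, and how many did was not tested.

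The rows of this cluster that the member list leaves out showed the same uneven profile. Mir292 held 115 and 99 counts (18.5 ± 3.01 CPM) and lay below Mir294 in both libraries (log2 ratio of Mir294 over Mir292 0.42 ± 0.30). Mir291b held 19 and 10 counts (2.53 ± 1.24 CPM), and its order against Mir295 differed between the libraries. Mir290a, the first hairpin, held 4 counts in replicate 1 and none in replicate 2. All 7 rows together held 120.1 CPM in replicate 1 and 104.8 CPM in replicate 2.

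**Figure D2:**
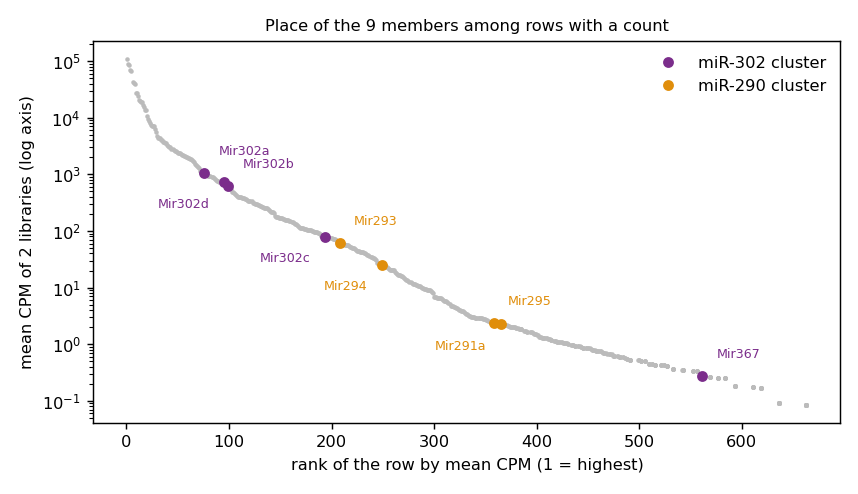
Mean CPM of the 2 libraries (log axis) against rank for all rows with a count in either library (grey), with the 9 members coloured by cluster. The miR-302 members with the exception of Mir367 rank from 76 to 194 and the miR-290 members from 208 to 365, so the groups do not overlap in rank apart from Mir367 at 561.

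Compared within each library, the miR-302 cluster held 24.5 times the counts of the miR-290 members in replicate 1 (22.5 to 26.8) and 30.4 times in replicate 2 (27.8 to 33.2). The mean log2 ratio was 4.77 ± 0.22 (SD, n = 2), or 27.3-fold, and miR-302 was higher in 2 of 2 libraries. The ratio was many times its SD, but an exact two-sided sign-flip permutation test over 2 libraries cannot go below p = 0.5, so no p-value is given. Single rows moved it in both directions: the log2 ratio fell to 3.97 without Mir302a and rose to 6.39 without Mir293, the leading miR-290 row, and was 5.40 for the medians over members.

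For the members with the seed AAGUGCU at bases 2 to 8, the difference was wider, which depends on the rows left out. Mir293, the leading miR-290 row, is left out because it carries another seed. Leaving out Mir293 alone raised the log2 ratio of the clusters to 6.39, and leaving out Mir302a alone lowered it to 3.97. Mir302b and Mir302d together held 1241 CPM in replicate 1 and 1449 CPM in replicate 2. Mir291a, Mir294 and Mir295 together held 35.5 and 24.5 CPM. The ratio was 34.9 in replicate 1 (30.3 to 40.4) and 59.1 in replicate 2 (50.3 to 70.0), a mean log2 ratio of 5.51 ± 0.54. The intervals of the libraries did not overlap. On the miR-290 side, Mir294 went from 178 to 114 counts and Mir295 from 8 to 20. Of the counts at rows with this seed, 97.2% in replicate 1 and 98.3% in replicate 2 came from the miR-302 side. These rows count both arms, and only the 3p arm carries the seed. How much of the counts came from that arm was not tested. Mir302a is on neither side of this ratio because its 3p arm was not read, and Mir302c because its entry starts 1 base later. With both counted too, the log2 ratio was 6.39.

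**Figure D3:**
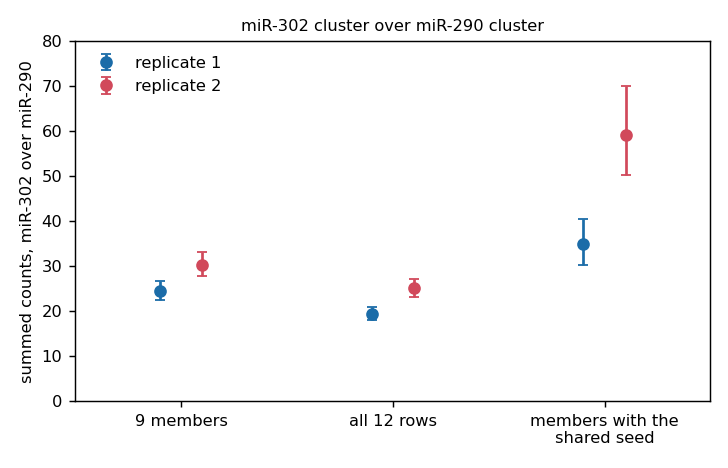
Summed counts of the miR-302 cluster over those of the miR-290 cluster in each library, for the 9 members, for all 12 rows of both clusters, and for the 5 members with the shared seed. Bars are exact 95% intervals from the counts. The points run from 19.5 to 59.1, and replicate 2 is above replicate 1 in each set.

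The pluripotency miRNAs were set beside rows with a related seed, from lists of families. The miR-17 family promotes proliferation, and the core of the shared seed, the letters AAGUGC, begins 1 base later in its 5p arms. These 6 letters were found within the first 9 bases of 19 of 1738 mature entries (1.09%), and 6 of those 19 genes were members. The 6 rows of the miR-17 family held 37277 CPM in replicate 1 and 41462 CPM in replicate 2, with Mir17 at 19922 ± 1221 CPM and Mir20a at 8186 ± 930 CPM in front. They exceeded the miR-302 cluster by 15.8-fold in counts, with a mean log2 ratio of 3.99 ± 0.01 (SD, n = 2). How much of the counts on either side came from the arm with these letters was not tested. Mir350, whose 5p seed AAGUGCA differs from that of miR-302b-3p in its last base, held 311 ± 35.5 CPM.

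Rows with the seed of Mir367 were present although Mir367 itself was at the limit. The 6 such rows held 2728 CPM in replicate 1 and 2339 CPM in replicate 2, led by Mir92-1 at 1977 ± 224 CPM and Mir25 at 292 ± 24.0 CPM. All 6 were at 10 CPM or more. Mir92-1 and Mir92-2 yield the same mature miR-92a-3p, so reads of that arm can map to both places and fall in the multi-mapping class. How much of these counts came from the arm with the seed was not tested.

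The tissue label was checked against marker rows, of which 6 of 7 cardiomyocyte miRNAs had a row. These held 50724 and 53395 CPM in replicates 1 and 2, nearly all at Mir208b and Mir208a, miRNAs of cardiac myosin introns, with Mir499 at 1825 ± 281 CPM. The other cardiomyocyte rows went the other way, with Mir1a-1 at 4.07 ± 0.598 CPM, Mir133a-1 at 2.89 ± 1.30 CPM and Mir133a-2 at 0. The cardiomyocyte rows exceeded the miR-302 cluster by 21.7-fold in replicate 1 and 20.3-fold in replicate 2 (log2 4.39 ± 0.07). Of 5 neuron rows, 4 had no count: Mir124a-1, Mir124a-2, Mir124a-3 and Mir9-2. The miR-1, miR-133, miR-124 and miR-9 miRNAs are each encoded at several loci, so their reads can map to several places, and these low rows were not read for or against the tissue label. Mir126a of endothelium held 70451 ± 6259 CPM, and the smooth muscle rows Mir143 and Mir145a together held 89334 ± 5937 CPM.

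**Figure D4:**
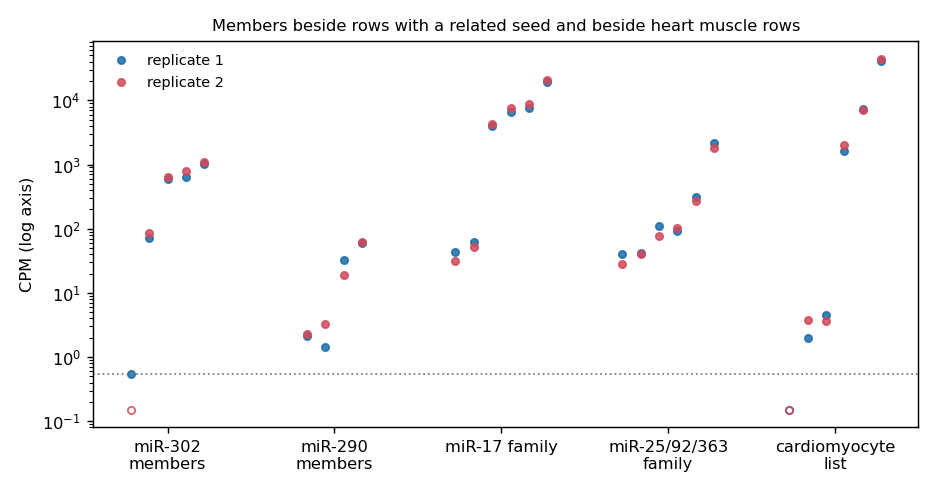
CPM on a log axis in each library for the miR-302 members, the miR-290 members, the miR-17 family, the rows with the seed of Mir367 and the cardiomyocyte list, sorted by level within each. Open circles are rows at 0, drawn at the foot of the axis, and the dotted line is 0.539 CPM. The highest miR-17 family row, Mir17, has a mean of 19922 CPM, while the highest miR-302 row is at 1061 CPM and the highest miR-290 member at 61.0 CPM.

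The libraries differed at single members, which was tested at the 288 rows with a mean of 10 CPM or more. A two-sided exact binomial test on the counts was adjusted by Benjamini-Hochberg over all 288 rows, and a row was called at an adjusted p under 0.05 with a ratio of at least 1.5. This compares the reads of 2 libraries, not conditions, and its p-values treat PCR copies as independent reads. It called 17 of 288 rows (5.9%). Of the 9 members, 6 reached 10 CPM and 1 of these was called, Mir294, with a log2 ratio of replicate 1 over replicate 2 of 0.73 (exact binomial test, adjusted p = 2.62e-05). The other 3 members, Mir291a, Mir295 and Mir367, were too low to be tested.

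Below that ratio, the 4 tested miR-302 members all had more in replicate 2, and each had an adjusted p under 0.05. The log2 ratio of replicate 1 over replicate 2 was -0.32 at Mir302d, -0.25 at Mir302c, and -0.11 at both Mir302a and Mir302b. An adjusted p under 0.05 with a higher level in replicate 2 was reached by 18.4% of the 288 rows, and with a higher level in replicate 1 by 43.1%. The median of the 4 miR-302 members was -0.18, beside 0.10 for all 288 rows. With TMM or DESeq2 scaling the median of all 288 rows was -0.003 or -0.02, so these shares and medians hold for scaling on total counts. The 4 miR-302 members stayed higher in replicate 2 under both. These members share a primary transcript and are not independent of each other. Mir293 had a log2 ratio of -0.06 (exact binomial test, adjusted p = 0.661), so no difference was shown there, unlike at Mir294 from the neighbouring hairpin.

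Markers of other cell types also differed between the libraries. Of all 288 tested rows, 189 were higher in replicate 1 and 99 in replicate 2 when scaled on total sense counts. This lean depends on the scaling: the median log2 ratio was 0.10 on totals, -0.003 with TMM and -0.02 with DESeq2 size factors. The directions below are those on total counts. Erythroid rows were higher in replicate 1 at 3 of 3 rows, with sums of 1261 and 959 CPM, and epithelial rows at 7 of 7, with sums of 2430 and 1895 CPM. In each of these lists 1 row was called. The smooth muscle rows were higher in replicate 2 at 2 of 2, with sums of 85136 and 93532 CPM and none called. Of 3 tested cardiomyocyte rows, 2 were higher in replicate 2 and 1 in replicate 1, and none was called. The row higher in replicate 1, Mir208a, had a log2 ratio of 0.03, so its direction could change with the scaling. Mir126a of endothelium held 74876 CPM in replicate 1 and 66025 CPM in replicate 2, and was not called. Leukocyte rows held 587 and 473 CPM, with 1 of 2 higher in replicate 1. Mir122 of hepatocytes held 201 CPM in replicate 1 and 591 CPM in replicate 2, a log2 ratio of -1.55, and was called. Mir294 moved in the direction of Mir126a and of the erythroid and epithelial rows. The miR-302 members moved in the direction of Mir122, the smooth muscle rows and 2 of the 3 tested cardiomyocyte rows. The part of such cells in these differences was not tested.

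**Figure D5:**
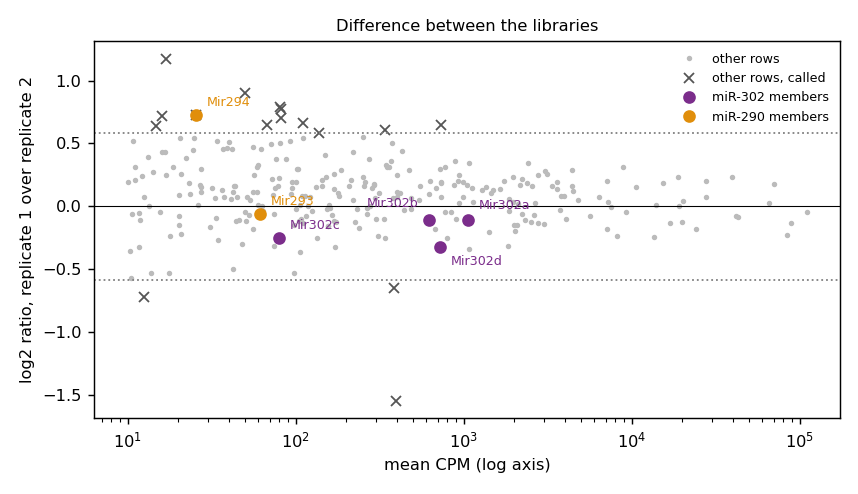
Log2 ratio of replicate 1 over replicate 2 against mean CPM (log axis) for the 288 tested rows, with a pseudocount of 1 CPM. Dotted lines are the ratio of 1.5 in each direction and crosses are other called rows. The 4 miR-302 members lie between -0.32 and -0.11, Mir293 at -0.06, and Mir294 at 0.73 among the called rows.

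The member hairpins of the 2 clusters, apart from that of Mir291a, were alike in base composition. GC content ran from 39.2% to 47.1% over the 5 miR-302 hairpins and from 41.3% to 46.4% over the hairpins of Mir293, Mir294 and Mir295. The median of all 1005 hairpins of the table was 51.7%. Of the miR-290 rows outside the members, Mir290a had 45.8%, and Mir292 at 50.0% and Mir291b at 51.9% lay above the miR-302 range. Their predicted folding energies were -35.6, -41.2 and -36.5 kcal/mol in that order. Predicted folding energies had medians of -28.6 kcal/mol for the miR-302 members and -32.0 for all hairpins. The median was -30.9 for the 3 miR-290 members Mir293, Mir294 and Mir295. Mir367, the lowest row, had the lowest predicted energy of its cluster at -34.5 kcal/mol, and at 75 nucleotides also its longest hairpin. Energies were not adjusted for length, whose median was 69 nucleotides for the miR-302 members and 80 for Mir293, Mir294 and Mir295.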

How the data were processed

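Small RNA libraries (size range under 30 nucleotides, per the labels) of 2 embryonic heart samples were analysed. For each gene the deposited files give the read count on both strands, on its own strand and on the other, as whole numbers. The authors used mm10 and GENCODE M4, as the notes deposited beside these counts state. What software aligned and counted the reads is not stated in any source read for this work. Rows of read classes stayed out of totals. Nothing says whether the samples came from separate litters, so SDs measure only the spread between these 2 samples, which may be technical, and p-values only the counting error of their reads. Of 1973 identifiers, 1894 matched GENCODE M21 on the same build. RefSeq mature sequences matched all 9 members, and hairpins 8 of 9, on GRCm38.p6.

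Sense counts were divided by their total (CPM). The members and lists were chosen with earlier results of these data known. Named genes were the 9 members, other rows of the clusters, hosts, rows with a member's seed, rows next in level, and the 2 highest rows of each family list. Beyond these, marker rows are named. The clusters' ratio of summed counts was computed per library. The seed ratio was planned for all miR-302 3p arms with the seed. It was run on those read with it at bases 2 to 8, which leaves out Mir302a and Mir302c. The 3p arm of Mir302a had no entry among the sequences used here, and the entry of Mir302c starts 1 base later. Neighbouring rows were said to differ where their log2 ratio had 1 sign in both libraries and a mean above its SD. Libraries were compared gene by gene with an exact binomial test. On simulated counts with counting error alone, where 200 of 289 tested rows were changed 2-fold, it recovered 198 and made 0 false calls. That setting has no other spread between samples, so it cannot give the rate of false calls in the real libraries. Size factors of edgeR 4.0.16 (TMM) and DESeq2 1.42.0 in R 4.3.3 were alternatives. Folding energies came from RNAfold 2.7.2. Python 3.11.15, scipy 1.17.1 and matplotlib 3.10.9 were used.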

Additional observations from a re-analysis of the deposited data

How the results depend on the processing

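The miR-302 cluster was above the miR-290 cluster under every alternative tried. The log2 ratio of the clusters, 4.77 with all members, was 4.99 with counts divided by hairpin length, 4.47 with all rows of the miR-290 cluster and 5.40 for medians. Chosen after the data were seen, it was 3.97 without Mir302a, 6.39 without Mir293 and 3.13 without Mir302a and Mir302b. The ratio of members with the shared seed, 5.51, was 4.77 over all 9 members and, chosen after the data were seen, 6.39 with Mir302a and Mir302c added. These moves follow from the rows counted. With either library alone the cluster ratio was 4.62 to 4.93, that of the shared seed 5.13 to 5.89, Mir302a over Mir302d 0.46 to 0.68 and Mir293 over Mir294 0.90 to 1.72. Of 27 levels of members under other scaling or on both strands, 26 moved by less than 1 SD, and Mir293 fell to 57.9 CPM on both strands, where the library total is larger. TMM or DESeq2 scaling moved the median ratio of the 288 rows from 0.10 to -0.003 and -0.02 on the log2 scale, and kept the call of Mir294 and the direction of all 6 tested members. With no ratio 5 members and 177 rows were called by the exact binomial test, and with a ratio of 2 it called 0 members and 2 rows, although 5 members had an unadjusted p under 0.05. With a minimum of 1 CPM 39 rows were called, and with none 45. With 2 libraries, leaving one out ends the test between them. No paired analysis was possible because there is 1 group. Depth limits the rows of Mir291a, Mir295, Mir367, Mir290a and Mir291b, which hold 20 counts or fewer per library.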
